A study of Mus musculus with 20 samples.

Results

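The genes described here belong to cholesterol synthesis and its control by the transcription factor SREBP2, measured in left ventricular heart tissue of mice fed 4 diets. Of 8 genes named for the group, Hmgcs1, Sqle, Idi1, Fdps, Fdft1, Insig1, Srebf2 and Lss, 7 were found by mouse symbol among the 15956 genes of the count table, and Idi1 was not analysed here. The rule uses gene names only. The 20 mice, 5 in each group, were male. The legend of the study's transcriptome figure gives a larger number per group than the 5 libraries used here. The label of LP mouse 5 names a sample 2 without saying what that denotes. The custom-formulated diet of the mice held a normal (NP) or a low (LP) share of protein, or was high in fat with normal protein (HF) or with low protein (HF + LP). Per the study's methods, casein supplied the protein, the diets with little protein were made isocaloric with carbohydrate at a constant fat content, and feeding began in middle age and lasted for months. Hearts were taken in the fed state during the light phase. Each mouse is labelled as 18 months old, whereas the methods describe a younger age at collection, and no strain is given in the sources used here. HF mice were the heaviest at 58.9 ± 1.76 g, then HF + LP at 48.6 ± 5.93 g, NP at 43.0 ± 7.82 g and LP at 32.6 ± 2.69 g (mean ± SD, n = 5 each). The p-values below measure the spread between these mice. HF and LP were both compared to the same NP mice, and HF + LP served in 2 comparisons, so those results are not independent of each other. Libraries came from whole ventricular tissue, so fewer cells of a type and less RNA per cell cannot be told apart.

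Cells build cholesterol from acetyl-CoA through mevalonate, isoprenoid phosphates, squalene and lanosterol. When sterols in the endoplasmic reticulum run low, the escort protein SCAP carries SREBP2 to the Golgi, where proteases release the part that enters the nucleus and binds sterol regulatory elements in the promoters of these genes. INSIG proteins hold SCAP and SREBP2 back when sterols are plentiful, and mRNA levels of the pathway are therefore widely read as a sign of how sterol-replete a tissue is, although the cleavage of SREBP2 itself is not visible in mRNA. Hmgcs1 (chromosome 13, 119690379 to 119708260 in GRCm38) makes HMG-CoA, the precursor of mevalonate. Fdps (chromosome 3, 89093588 to 89101959) makes farnesyl diphosphate. Fdft1 (chromosome 14, 63145150 to 63179578) joins farnesyl units into squalene, Sqle (chromosome 15, 59315077 to 59331192) adds oxygen to squalene, and Lss (chromosome 10, 76531588 to 76557138) closes the rings to lanosterol. Insig1 (chromosome 5, 28071363 to 28078662) encodes the sterol-dependent retention protein, and Srebf2 (chromosome 15, 82147181 to 82205379) encodes SREBP2. All 7 are protein-coding.

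Stretches upstream of the transcription start are shown for the 4 genes with a RefSeq promoter window (GRCm38.p6), because SREBP2 acts at such sites together with the CCAAT-binding factor NF-Y. Capitals mark matches on either strand to the core of the sterol regulatory element (TCACNCCAC) or to CCAAT, which reads ATTGG on the other strand. All 4 lie on the plus strand, and the stretches are chr13:119690102-119690322 for Hmgcs1, chr5:28071184-28071212 for Insig1, chr15:82147122-82147150 for Srebf2 and chr10:76531531-76531559 for Lss.
Hmgcs1: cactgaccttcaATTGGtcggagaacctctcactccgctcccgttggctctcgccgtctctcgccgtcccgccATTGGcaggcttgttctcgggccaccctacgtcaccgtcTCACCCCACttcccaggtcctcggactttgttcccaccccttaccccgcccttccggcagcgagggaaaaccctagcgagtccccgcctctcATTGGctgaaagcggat
Insig1: cgccctcctcccATTGGctccggcggcct
Srebf2: cttcgcgcgccgATTGGctaatgcaagcc
Lss: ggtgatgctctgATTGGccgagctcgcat
Within the 250 bases before the start, Hmgcs1 held 1 match to the sterol regulatory element core, at 137 to 129 bases upstream, and 3 CCAAT boxes. Insig1, Srebf2 and Lss held 1 CCAAT box each. Every one of the 4 also held GGGCGG, the box bound by Sp1, at 2 to 4 places. Of all 32851 windows of this length, 1.05% held the sterol regulatory element core, 33.8% held CCAAT and 32.7% held GGGCGG. The sequence CATGTG, an E-box-like site that SREBP proteins can also bind, was in none of the 4 and in 12.3% of all windows. A match in letters does not show binding.

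Levels are given as normalized counts, which are read counts scaled to a common library size. Reads came from the 3′ ends of transcripts, and long transcripts therefore give no more reads than short ones, so that levels of different genes can be set side by side as read numbers. The 20 libraries held 12559607 to 23331907 counts. Hmgcs1 was the most abundant member, with a mean normalized count of 432 over the 20 mice, followed by Fdft1 with 196, Srebf2 with 98.6, Fdps with 62.6, Insig1 with 40.5, Lss with 24.5 and Sqle with 7.15. Across the 20 mice the coefficient of variation was 13.4% for Hmgcs1, 18.9% for Fdft1, 20.5% for Fdps, 22.9% for Srebf2, 40.4% for Insig1, 55.1% for Lss and 79.5% for Sqle. Counting error alone would give 4.93% for Hmgcs1, 7.35% for Fdft1, 13.0% for Fdps, 10.5% for Srebf2, 17% for Insig1, 22.5% for Lss and 45.1% for Sqle. Counting error was thus largest for Sqle and Lss, and for each member the spread between mice exceeded it. Differences between diets made up 1.33% of the variance in log2 level for Fdps, 10.6% for Fdft1, 16.2% for Hmgcs1, 21.3% for Lss, 22.4% for Insig1, 30.9% for Sqle and 42.8% for Srebf2, where the median of all genes tested was 17.2%.

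2 of the 20 libraries stood apart in ways that touch these genes. The summed normalized count of 5 adipocyte markers (Adipoq, Plin1, Lep, Cidec and Cfd) was 4990 in LP mouse 13 and 2246 in LP mouse 20, compared to 72.8 to 122 in the other LP mice. It was 12.3 to 185 in HF + LP, 8.80 to 1145 in HF and 22.3 to 787 in NP. None of the 5 markers was at 0 in either mouse. The atrial genes Nppa, Myl7, Myl4 and Sln summed to 245765 in LP mouse 13 and to 204494 in HF mouse 1, while each diet also held mice at 2423 or less. LP mouse 13 also had the highest sum of 5 macrophage markers, 5435 compared to 2639 to 5162 in the other libraries, and of 4 Schwann cell markers, 719 compared to 103 to 442. For HF + LP compared to LP, 2 of the 3 Schwann cell markers tested were lower at an unadjusted p under 0.05 (9.66% of all genes), with a median of -0.92, and 0 were without LP mice 13 and 20. All 5 adipocyte markers were lower at that p in the same comparison, with a median log2 fold change of -4.69. Without those mice 0 were (680 of 14141 genes). For high fat averaged over both protein contents all 5 were lower as well (1756 of 13991 genes), with a median of -2.47. Without those mice 0 were (1619 of 14141 genes). LP mouse 20 also held lymphocyte marker counts of 6332 in all, compared to 29.2 to 79.9 in the other libraries. Sums of 8 cardiomyocyte markers lay between 563390 and 909464, and LP mice 13 and 20 had the lowest sums of their diet, 563390 and 581682, compared to 748297 to 828011 in the other LP mice. These sums were 569043 to 740439 in HF and 731348 to 909464 in NP. For HF compared to NP, 4 of the 8 cardiomyocyte markers were lower at an unadjusted p under 0.05 (7.91% of all genes), with a median log2 fold change of -0.24. The sums of 5 macrophage markers were 4436 to 5162 in HF and 3316 to 4015 in NP, and 3 of the 5 were higher at that p (5.17% of all genes), with a median of 0.46. The test described below called 0 markers of either list in that comparison, and the part of these shifts in the differences between HF and NP was not tested. Fitted differences that involve LP mice are followed by their values without LP mice 13 and 20, a choice made after their values had been seen, and the part that adipose, atrial, macrophage, Schwann cell or lymphoid RNA has in the results was not tested.

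**Figure D1:**
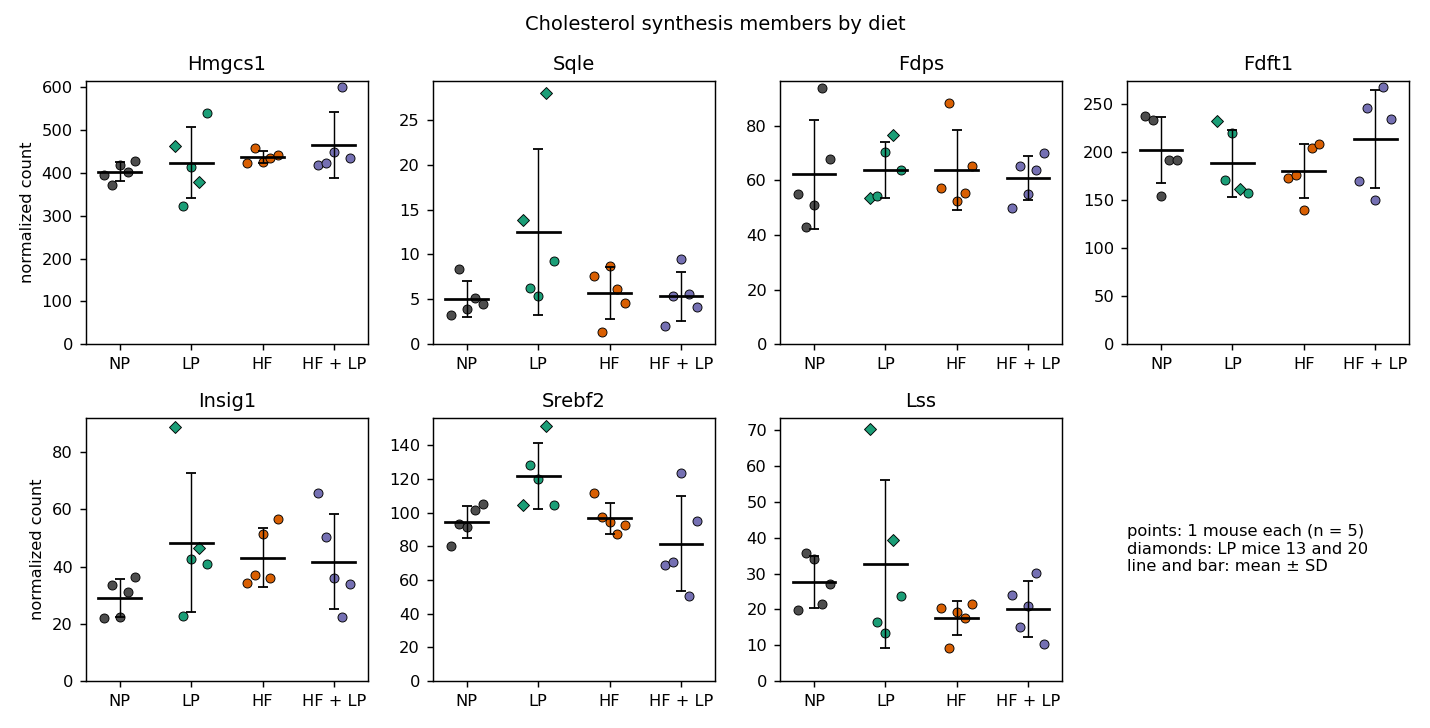
Normalized counts of the 7 members (vertical axes, each from 0) by diet, with 1 point per mouse, diamonds for LP mice 13 and 20, and lines and bars for the mean ± SD (n = 5). Hmgcs1, Fdps and Fdft1 overlap in all 4 diets, while the highest points of Sqle, Insig1, Srebf2 and Lss are LP mouse 13 or 20.

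Differences between diets were tested with edgeR's quasi-likelihood test on all 20 libraries. A gene was called at an adjusted p under 0.01, taken over the 13991 genes tested, together with a mean normalized count over 50. 6 members were tested, since the counts of Sqle were too low, and only Hmgcs1, Fdft1, Srebf2 and Fdps exceeded the level of 50 that a call needs. The test called 0 of the 6 in each of the comparisons made. Over all genes it called 37 (0.264%) for HF compared to NP, 0 (0%) for LP compared to NP, 0 (0%) for HF + LP compared to HF and 14 (0.1%) for HF + LP compared to LP. It called 140 (1%) for high fat averaged over both protein contents, 0 (0%) for low protein averaged over both fat contents, 0 (0%) for the interaction of fat and protein content, and 67 (0.479%) for any difference among the 4 diets. DESeq2 likewise called 0 members in each of these, with 163, 4, 16, 84, 398, 1, 1 and 327 genes called in all, in the same order. At an unadjusted p under 0.05, the edgeR test found 0 of 6 members for HF compared to NP (13.1% of all genes), 1 for LP compared to NP (7.23%), 0 for HF + LP compared to HF (4.84%) and 1 for HF + LP compared to LP (15.9%). It found 2 for high fat averaged (20.8%), 0 for low protein averaged (5.47%), 1 for the interaction (7.17%) and 1 for any difference among diets (15.9%). The counts without LP mice 13 and 20 were 2 of 6 for HF compared to NP (16.5% of all genes), 0 for LP compared to NP (2.68%), 1 for HF + LP compared to LP (7.5%) and 0 for high fat averaged (19.1%). With 6 members, a count of 1 or 2 does not set them apart from all genes.

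**Figure D2:**
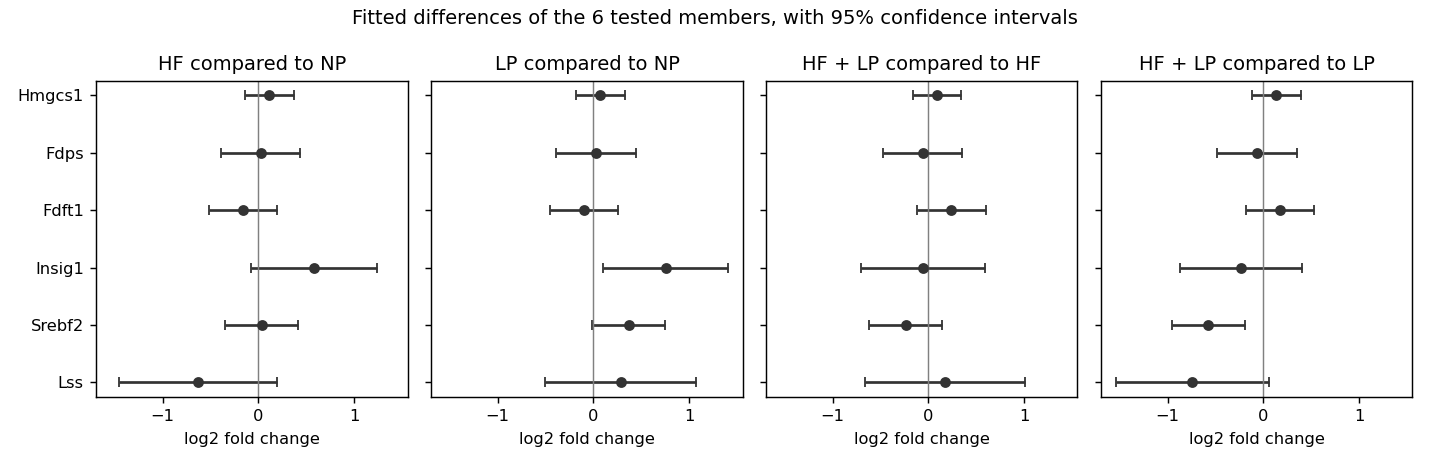
Fitted log2 fold changes (horizontal axes) of the 6 tested members in the 4 pairwise comparisons, with 95% confidence intervals. The intervals of Hmgcs1 are the narrowest and all include 0, those of Lss are the widest, and only Insig1 in LP compared to NP and Srebf2 in HF + LP compared to LP have intervals that leave out 0.

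Among the synthesis enzymes, Hmgcs1 was measured most precisely, and its diet means lay between 403 and 465. Values below are in the order of animals 3, 4, 5, 6 and 8 for NP, animals 2, 5, 13, 15 and 20 for LP, and animals 1 to 5 for HF and for HF + LP. The normalized count of Hmgcs1 was 394, 372, 418, 403 and 427 in NP, and 414, 539.6, 464, 321 and 378 in LP. It was 423, 459, 425, 434 and 441 in HF, and 418, 423, 448, 600.3 and 435 in HF + LP. All groups overlapped, with the highest value in HF + LP mouse 4 and the lowest in LP mouse 15. Compared to NP, the log2 fold change was 0.12 ± 0.12 (SE) in HF (adjusted p = 0.782) and 0.07 ± 0.12 in LP (adjusted p = 0.958). HF + LP differed from HF by 0.09 ± 0.12 and from LP by 0.13 ± 0.12, with adjusted p-values of 1.00 and 0.613. LP differed from NP by 0.09 ± 0.14 and HF + LP from LP by 0.11 ± 0.14 when LP mice 13 and 20 were left out. With all mice, the 95% intervals of the 4 differences lay between -0.18 and 0.39 on the log2 scale, so a change of 1.5-fold in either direction is outside them.

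Diet means of Fdps lay closest together. Its normalized count was 55.0, 43.0, 51.1, 93.8 and 67.9 in NP, and 70.5, 63.6, 53.5, 54.2 and 76.8 in LP. It was 57.2, 88.3, 52.4, 55.4 and 65.2 in HF, and 50, 65.2, 55.2, 63.8 and 70.1 in HF + LP. The group means of 62.2, 63.7, 63.7 and 60.9 differed by far less than the spread within any group, and the extremes of the whole series, 43.0 and 93.8, were both NP mice. Fitted differences were 0.02 ± 0.20 for HF compared to NP, 0.03 ± 0.20 for LP compared to NP, -0.06 ± 0.20 for HF + LP compared to HF and -0.07 ± 0.20 for HF + LP compared to LP. The intervals of the 4 lay between -0.48 and 0.44. Leaving out LP mice 13 and 20 gave 0.01 ± 0.23 for LP compared to NP and -0.06 ± 0.23 for HF + LP compared to LP. The test for any difference among diets gave an adjusted p of 0.994 (edgeR).

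Fdft1 varied from mouse to mouse more than between diets. The normalized count was 238, 234, 155, 192 and 192 in NP, and 219.5, 158, 232, 171 and 161 in LP. It was 173, 177, 139.7, 204 and 209 in HF, and 169.8, 246, 150.3, 268 and 234 in HF + LP. The lowest mouse of every diet lay at or under 158 and the highest at or over 209, so that the groups covered much the same range. The fitted log2 fold change was -0.16 ± 0.17 for HF compared to NP, -0.10 ± 0.17 for LP compared to NP, 0.24 ± 0.17 for HF + LP compared to HF and 0.18 ± 0.17 for HF + LP compared to LP. Adjusted p-values of the 4 lay between 0.633 and 1.00 (edgeR). Leaving out single mice gave -0.24 to -0.083, -0.19 to -0.037, 0.15 to 0.31 and 0.085 to 0.29 for Fdft1 in these comparisons, in the same order. The difference of LP from NP was -0.14 ± 0.19 and that of HF + LP from LP 0.21 ± 0.19 without LP mice 13 and 20. The last 774 bases of the Fdft1 gene overlap Ctsb on the other strand, a far more abundant gene at 2945 to 4666 normalized counts. How strand was used in counting is not given in the sources used here, so reads of the overlap could have been shared. Over the 20 mice the log2 levels of both genes had a Pearson r of 0.593, given as a description.

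Sqle, an oxygen-requiring step, was the scarcest member, with 1 to 39 reads per library and at least 10 reads in 4 of 20. The normalized count was 3.30, 8.35, 3.93, 5.16 and 4.52 in NP, and 5.32, 9.23, 13.8, 6.30 and 28.0 in LP. It was 7.63, 1.32, 8.73, 6.16 and 4.60 in HF, and 2.08, 5.34, 9.51, 5.6 and 4.12 in HF + LP. The values of LP mice 13 and 20 were the 2 highest of the series, and the other 3 LP mice overlapped every group. The mean was 12.5 ± 9.25 in LP compared to 5.06 ± 1.97 in NP (SD, n = 5; two-sided exact permutation test p = 0.0556, where the smallest possible p is 0.00794). HF + LP averaged 5.33 ± 2.72 and HF 5.69 ± 2.90. The exact permutation p was 0.0873 for HF + LP compared to LP, 0.849 for HF + LP compared to HF and 0.683 for HF compared to NP, all two-sided. With LP mice 13 and 20 left out, the LP mean was 6.95 ± 2.03 (SD, n = 3), and the exact permutation p was 0.25 for LP compared to NP and 0.393 for HF + LP compared to LP, where the smallest possible p is 0.0357. At this depth only large differences in Sqle could be seen.

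Lss, the lanosterol synthase, had its highest value in LP mouse 13. The normalized count was 19.8, 35.8, 34.1, 21.5 and 27.1 in NP, and 13.3, 23.6, 70.4, 16.4 and 39.5 in LP. It was 20.3, 9.22, 19.2, 17.6 and 21.5 in HF, and 24.0, 15.0, 20.9, 30.2 and 10.3 in HF + LP. The HF mice lay at 21.5 or lower and all but 1 NP mouse at 21.5 or higher, with NP mouse 3 among the HF values. The log2 fold change was -0.63 ± 0.39 for HF compared to NP (adjusted p = 0.556), 0.29 ± 0.38 for LP compared to NP (adjusted p = 0.950), 0.18 ± 0.40 for HF + LP compared to HF (adjusted p = 1.00) and -0.74 ± 0.38 for HF + LP compared to LP (adjusted p = 0.351), by edgeR. Averaged over both protein contents, high fat gave -0.69 ± 0.28 (adjusted p = 0.156). Without LP mice 13 and 20 that average was -0.24 ± 0.23 (adjusted p = 0.618 by edgeR), and LP compared to NP changed from 0.29 to -0.60 ± 0.35 and HF + LP compared to LP from -0.74 to 0.14 ± 0.35. The direction of Lss in LP thus rests on those 2 mice.

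Of the 2 regulators, Srebf2 had the largest share of variance between diets of all members, whereas that of Insig1 was close to that of Lss and below that of Sqle, and neither regulator was called. Insig1, which is itself induced by SREBP2 and so closes a feedback loop, had normalized counts of 22.0, 33.4, 22.3, 31.0 and 36.2 in NP. It had 42.6, 41.0, 88.7, 22.7 and 46.6 in LP, 34.3, 36.9, 51.5, 36.1 and 56.8 in HF, and 65.6, 50.2, 36.1, 22.4 and 34.0 in HF + LP. LP held the highest mean, 48.3 ± 24.4, followed by HF at 43.1 ± 10.3, HF + LP at 41.7 ± 16.6 and NP at 29.0 ± 6.50 (SD, n = 5 each), and every pair of groups overlapped. LP compared to NP gave a log2 fold change of 0.75 ± 0.31, with a 95% interval of 0.10 to 1.41 (adjusted p = 0.635 by edgeR), with 4 of 5 LP mice above all NP mice. HF compared to NP gave 0.58 ± 0.32 (adjusted p = 0.472). Leaving out LP mice 13 and 20 lowered the LP difference to 0.30 ± 0.32 (adjusted p = 1.00) and left the HF difference at 0.58 ± 0.27 (adjusted p = 0.297). HF + LP differed from HF by -0.06 ± 0.31 (adjusted p = 1.00) and from LP by -0.23 ± 0.31 (adjusted p = 0.743), and the latter was 0.22 ± 0.32 without LP mice 13 and 20.

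Srebf2 was the member with the smallest p in any pairwise comparison. Its normalized count was 80.3, 93.1, 91.8, 102 and 105 in NP, and 119.7, 105, 104, 129 and 151 in LP. It was 112, 97.5, 94.3, 87.1 and 92.8 in HF, and 68.7, 70.5, 124, 50.4 and 94.9 in HF + LP. LP was the highest group and HF + LP the lowest, and 4 of 5 HF + LP mice lay under all 5 LP mice, while HF + LP mouse 3, at 124, lay among them. Compared to LP, the log2 fold change in HF + LP was -0.57 ± 0.18, with a 95% interval of -0.95 to -0.19 (adjusted p = 0.140 by edgeR and adjusted p = 0.0774 by DESeq2). Without LP mice 13 and 20 it was -0.53 ± 0.20 (adjusted p = 0.540). LP compared to NP gave 0.37 ± 0.18 (adjusted p = 0.697), HF compared to NP gave 0.03 ± 0.18 (adjusted p = 0.973) and HF + LP compared to HF gave -0.24 ± 0.18 (adjusted p = 1.00). The last of these was -0.47 (adjusted p = 0.614 by edgeR) without HF + LP mouse 3 and -0.11 without HF + LP mouse 4. The interaction of fat and protein content, the difference between the effect of low protein under high fat and its effect otherwise, was -0.60 ± 0.26 (adjusted p = 0.684), and high fat averaged over both protein contents gave -0.27 ± 0.13 (adjusted p = 0.236). When LP mice 13 and 20 were left out, Srebf2 gave 0.32 ± 0.21 for LP compared to NP, -0.56 ± 0.27 for the interaction and -0.25 ± 0.14 for high fat averaged, with adjusted p-values of 1.00, 1.00 and 0.344 (edgeR). An intron of Srebf2 hosts the microRNA gene Mir33, which represses cholesterol export, and its mature product was not measured by these libraries.

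Within diets, the edgeR test of body weight called 0 members and 0 of all 13991 genes (0%), with 2 of 6 members and 2.69% of all genes at an unadjusted p under 0.05. DESeq2 was not run on body weight. Fdft1 was higher by 0.03 ± 0.01 log2 units per g (adjusted p = 0.999 by edgeR) and Srebf2 lower by -0.03 ± 0.01 per g (adjusted p = 0.999), and both log2 values were the same at this rounding without LP mice 13 and 20. When single mice were left out, the value of Srebf2 ranged from -0.038 to -0.017 per g, with -0.017 without HF + LP mouse 3 and -0.019 without HF + LP mouse 4.

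From mouse to mouse the members showed little shared variation. Over the 21 pairs of members, Pearson's r of log2 levels over the 20 mice had a median of 0.0535 and ranged from -0.517 to 0.582, with 13 of 21 above 0. Over the 18 mice without LP mice 13 and 20 the median was -0.016, with 10 of 21 above 0 and a highest r of 0.336, for Sqle and Lss. The pair most alike was Sqle and Lss (r = 0.582, permutation p = 0.00862, adjusted over 21 pairs 0.138; rho = 0.358, permutation p = 0.123, adjusted 0.797), and without the 2 mice farthest in Sqle its r was 0.405. Srebf2 and Sqle had r = 0.514 (permutation p = 0.0237, adjusted 0.138; rho = 0.495, permutation p = 0.0285, adjusted 0.509), and r = 0.420 without those 2 mice and 0.318 without LP mice 13 and 20. Srebf2 ran opposite to Fdft1 (r = -0.517, permutation p = 0.0171, adjusted 0.138; rho = -0.448, permutation p = 0.0485, adjusted 0.509), with r = -0.435 once the 2 mice farthest in Fdft1 were left out and -0.368 without HF + LP mouse 4 alone. Srebf2 and Hmgcs1 had r = -0.509 (permutation p = 0.0262, adjusted 0.138), but rho was -0.149 (permutation p = 0.530, adjusted 0.856). That relation rested on HF + LP mouse 4, which had the highest Hmgcs1 and Fdft1 and the lowest Srebf2 of the series, and r was -0.202 without it. After adjustment 0 of the 21 pairs had a p under 0.05, and 4 did before it by Pearson's r.

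The genes whose log2 levels most resembled the mean of the 7 members over the 20 mice were the fatty acid genes Fasn (r = 0.860), Scd1 (r = 0.856), Elovl6 (r = 0.840) and Acaca (r = 0.834), with Ppp2r1b (r = 0.837) and Fam117a (r = 0.836). These r are descriptions, taken from 10159 genes. The mean of the members was highest in LP mouse 13, at 0.58 log2 units above its average, and LP mouse 20, at 0.50, whereas the other 18 mice lay between -0.28 and 0.13. Once those 2 mice were set aside, r was 0.303 for Fasn, which ranked 1795th, and 0.346 for Scd1, and the 6 genes most alike were Rapgef4, Zfp263, Rbm15b, Pdzrn3, Fbxo30 and Efr3b, with r from 0.713 to 0.748 over 18 mice. After removing diet group means from all 20 mice, the genes most alike were Tipin (r = 0.825), Fasn, Scd1, Fam91a1, Aldh1a2 and Spata13. Of the 7 members, 4 had their highest value in LP mouse 13 or 20.

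**Figure D3:**
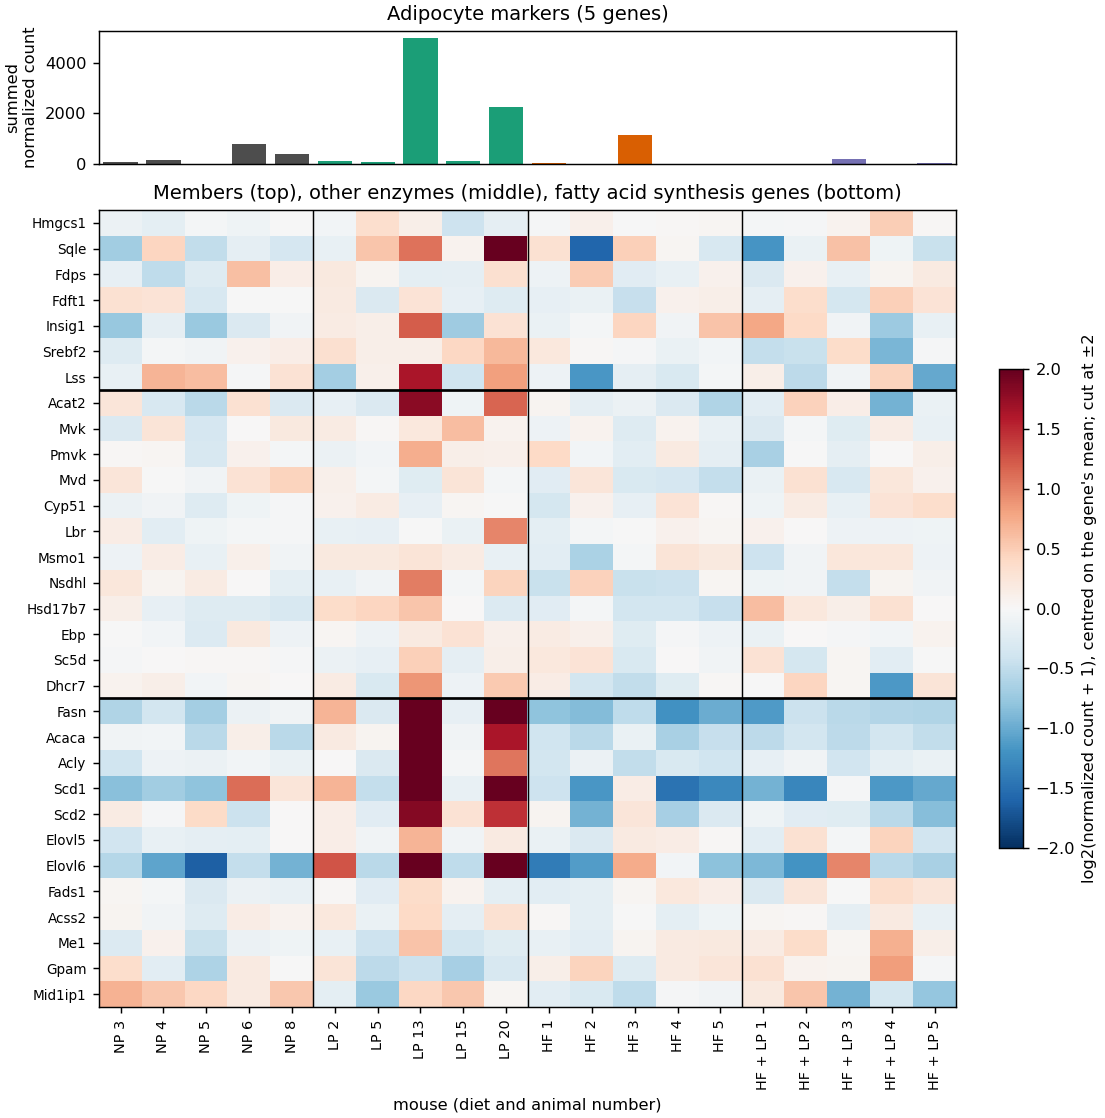
Log2(normalized count + 1) centred on each gene's mean (colour, cut at ±2) for the 7 members, other sterol enzymes and fatty acid synthesis genes with a mean over 20, by mouse, below a bar chart of the summed adipocyte marker counts. Fasn, Acaca, Acly, Scd1 and Elovl6 are deepest red in LP mice 13 and 20, the mice with the tallest bars, as are Sqle, Lss and Acat2, while Hmgcs1, Fdps and Fdft1 are not.

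The other enzymes of the pathway were examined from a list of 14 genes that did not include the members. All 14 were in the count table, 13 were tested and 0 were called in any comparison. At an unadjusted p under 0.05, HF compared to NP had 1 of 13 lower (7.91% of all genes), LP compared to NP 2 higher (5.02%), HF + LP compared to HF 1 higher (2.41%) and HF + LP compared to LP 2 lower (9.66%). For LP compared to NP, 12 of the 13 had a fitted value above 0 and their median was 0.23, compared to 54.6% above 0 and a median of 0.02 over all genes tested. In the fit without LP mice 13 and 20, 6 of the 13 lay above 0 with a median of -0.04, compared to 50.9% and 0.00 over all genes, so that the higher values rested on those 2 mice. For HF compared to NP the median was -0.04 (all genes 0.00). Hsd17b7, a sterol reductase that acts late in the pathway, had the smallest p in the list. Its normalized count was 226, 184, 173, 172 and 165 in NP, and 267, 280.1, 306, 208 and 171 in LP. It was 177, 202, 159.8, 159 and 149.6 in HF, and 318, 240.4, 223, 255 and 208 in HF + LP. All 5 HF + LP mice exceeded all 5 HF mice, a pattern seen in 0.543% of all genes, and the log2 fold change was 0.56 ± 0.15 (adjusted p = 0.324). Averaged over both fat contents, low protein gave 0.49 ± 0.11 (adjusted p = 0.390 by edgeR), and 0.51 ± 0.10 (adjusted p = 0.400) without LP mice 13 and 20.

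Acat2, the cytosolic thiolase at the head of the pathway, had 216 and 138 normalized counts in LP mice 13 and 20 and 31.4 to 84.4 in the other 18 mice. Its log2 fold change for LP compared to NP was 0.85 ± 0.35 (adjusted p = 0.635) with these mice and -0.10 ± 0.26 (adjusted p = 1.00 by edgeR) without them. Mvd, which decarboxylates mevalonate diphosphate, gave -0.41 ± 0.16 for HF compared to NP (adjusted p = 0.261). Mvk, the mevalonate kinase, gave -0.34 ± 0.15 for HF + LP compared to LP (adjusted p = 0.276), and -0.41 ± 0.17 (adjusted p = 0.569 by edgeR) without LP mice 13 and 20.

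The machinery that processes SREBP and mediates sterol-dependent degradation (SCAP, the site proteases, Insig2, ERLIN proteins and ubiquitin ligases, 12 genes, all tested) held 0 called genes. Its medians were 0.13 for HF compared to NP and 0.05 for LP compared to NP, the latter -0.04 without LP mice 13 and 20. The 4 genes with the smallest p were Erlin2, Rnf145, Rnf139 and Srebf1, with adjusted p-values for any difference among diets of 0.364 to 0.596. Srebf1, which encodes the sister factor SREBP1, gave 0.68 ± 0.51 for LP compared to NP (adjusted p = 0.850). Its normalized count was 345 and 215 in LP mice 13 and 20 and 72.8 to 112 in the other 3 LP mice, against a mean of 108 in NP, and the difference was -0.14 ± 0.55 (adjusted p = 1.00 by edgeR) without those 2 mice.

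Sterol uptake and transport within the cell held the sole called gene of the sterol lists. Gramd1b encodes Aster-B, a protein that moves cholesterol from the plasma membrane to the endoplasmic reticulum, where SCAP senses it. Its normalized count was 547, 581, 465, 548 and 553 in NP, and 484, 454, 313, 528 and 484 in LP. It was 261, 219, 300.4, 328 and 338 in HF, and 312, 369, 391, 487 and 373 in HF + LP. All 5 HF mice lay under all 5 NP mice, as in 3.6% of all genes, while HF + LP reached into both. Gramd1b fell in HF compared to NP, with a log2 fold change of -0.90 ± 0.15 (adjusted p = 0.00297 by edgeR), and averaged over both protein contents it fell with high fat by 0.56 ± 0.10 (adjusted p = 0.00379). HF + LP differed from HF by 0.42 ± 0.15 (adjusted p = 0.617), and the interaction was 0.67 ± 0.20 (adjusted p = 0.614). Without LP mice 13 and 20 the difference between HF and NP was again -0.90, that for high fat averaged was -0.62 ± 0.09 and the interaction 0.55 ± 0.18 (adjusted p = 1.00 by edgeR). Besides the cardiomyocyte and macrophage markers given above, 2 of 4 erythroid markers were higher in HF than in NP at an unadjusted p under 0.05 (5.17% of all genes), with a median of 0.67, and 2 of 5 smooth muscle and pericyte markers lower (7.91% of all genes), with a median of -0.18. For high fat averaged, 1 of 8 cardiomyocyte and 1 of 5 smooth muscle and pericyte markers were called (1% of all genes). Mitochondrial genes held 43.2% ± 2.48 of the counts of NP mice and 38.7% ± 0.75 of those of HF mice (SD over 5 mice each). The part of these differences in the fall of Gramd1b was not tested. The call for HF compared to NP was lost when NP mouse 6 (adjusted p = 0.0113 by edgeR), NP mouse 8 (0.0111), HF mouse 1 (0.0102) or HF mouse 2 (0.0104) was left out, while the log2 fold change stayed between -0.96 and -0.81. The call for high fat averaged over both protein contents was lost without HF + LP mouse 3 (adjusted p = 0.0104 by edgeR), and its log2 fold change stayed between -0.62 and -0.52 when any 1 mouse was left out. Gramd1b was also called for any difference among the 4 diets (adjusted p = 0.00931 by edgeR), a call lost in 17 of 20 fits that left out 1 mouse, all but those without LP mouse 5, LP mouse 13 or HF + LP mouse 4, with adjusted p-values of 0.0104 to 0.0237.

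Npc1, which exports cholesterol from lysosomes, was 729.7, 638, 665, 632 and 688 in NP and 559, 560.1, 458, 468 and 381 in HF. It was 382, 498, 540, 580 and 636 in LP and 608, 497, 495, 522 and 593 in HF + LP. NP was thus the highest diet, with all HF mice, all HF + LP mice and 4 of 5 LP mice under all NP mice. The log2 fold change was -0.47 ± 0.13 for HF compared to NP (adjusted p = 0.0704), where 3.6% of all genes had HF mice under all NP mice, and -0.35 ± 0.13 for LP compared to NP (adjusted p = 0.592 by edgeR). Without LP mice 13 and 20 these were -0.47 ± 0.12 and -0.46 ± 0.14, with adjusted p-values of 0.0446 and 1.00 (edgeR), and none of them passed the threshold. In all, 10 of the 12 genes of this list were tested, and 1 was called, against 0.264% of all genes for HF compared to NP, 1% for high fat averaged and 0.479% for any difference. The median log2 fold change was 0.06 for HF compared to NP and 0.08 for LP compared to NP, the latter -0.09 without LP mice 13 and 20. Stard3 and Gramd1a, the other genes with small p, had adjusted p-values of 0.313 and 0.634 for any difference among diets.

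**Figure D4:**
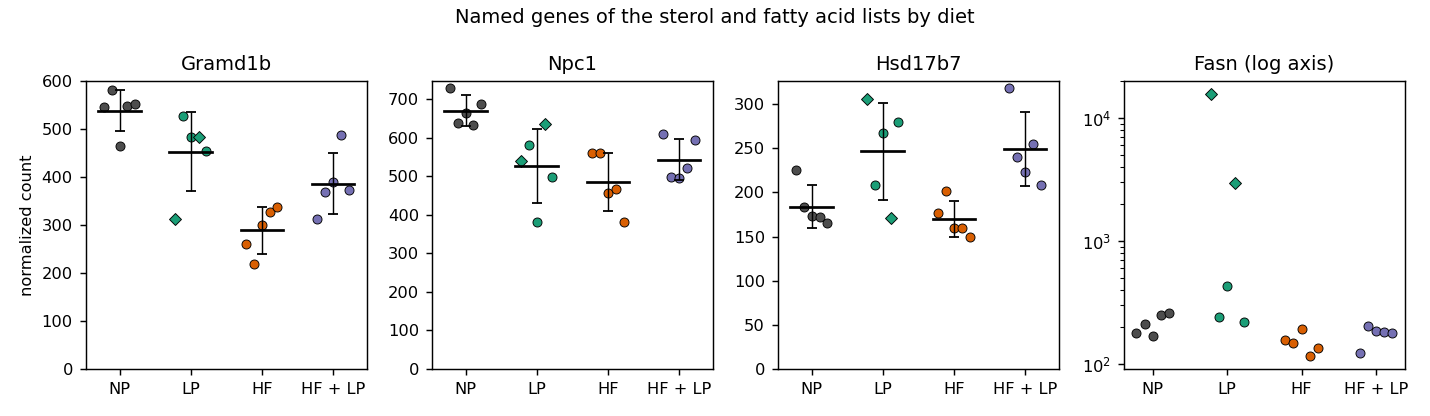
Normalized counts of Gramd1b, Npc1, Hsd17b7 (axes from 0) and Fasn (log axis) by diet, with 1 point per mouse, diamonds for LP mice 13 and 20, and mean ± SD where the axis starts at 0. Gramd1b and Npc1 are lower in all HF mice than in all NP mice, Hsd17b7 is higher in all HF + LP mice than in all HF mice, and Fasn is high in LP mice 13 and 20.

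A mixed list of 12 genes, all tested, had 0 called. It held LXR target genes, which respond to excess sterol, the LXR receptor genes Nr1h2 and Nr1h3, and genes of sterol efflux and esterification. Not all 12 are thus LXR targets. The scavenger receptor Scarb1 gave -0.42 ± 0.17 for HF compared to NP (adjusted p = 0.283), with all HF mice under all NP mice, as in 3.6% of all genes. Abcg1, a sterol exporter, gave 1.02 ± 0.38 for LP compared to NP (adjusted p = 0.609) and 0.28 ± 0.37 without LP mice 13 and 20. Lpcat3, a phospholipid-remodelling enzyme, gave 0.36 ± 0.10 for HF + LP compared to LP (adjusted p = 0.124), with no overlap between the groups, as in 0.915% of all genes. Abca2 gave -0.67 ± 0.29 in that comparison (adjusted p = 0.258). Once LP mice 13 and 20 were left out, the difference was 0.29 ± 0.13 (adjusted p = 0.605 by edgeR) for Lpcat3 and -0.52 ± 0.29 (adjusted p = 0.720) for Abca2. Genes of the isoprenoid branches (prenyl transferases, ubiquinone and dolichol synthesis) were 12, all tested, with 0 called. Their medians were -0.06 to 0.15 in the 4 pairwise comparisons and -0.04 to 0.04 without LP mice 13 and 20. Rabggtb, Ggps1, Fntb and Trit1 had the smallest p, with adjusted p-values for any difference among diets of 0.297 to 0.539.

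Fatty acid synthesis genes driven by SREBP1 were read from a list of 14, of which 13 were tested. At an unadjusted p under 0.05, 8 of the 13 were higher for LP compared to NP (5.02% of all genes), and 2 were without LP mice 13 and 20 (235 of 14141 genes). For any difference among the 4 diets 3 of the 13 were called (0.479% of all genes), Fasn (adjusted p = 0.00173), Scd1 (adjusted p = 0.00399) and Elovl6 (adjusted p = 0.00449 by edgeR), and Acaca had an adjusted p of 0.0133. Fasn, the fatty acid synthase, had 15709.9 and 2951 normalized counts in LP mice 13 and 20 and 116 to 434 in the other 18. Scd1, the stearoyl-CoA desaturase, had 12305 and 2982 in them and 77.4 to 473 elsewhere, and Elovl6, an elongase, had 997 and 265 in them and 5.25 to 45.2 elsewhere. Without these 2 mice none of the 3 was called, with adjusted p-values of 0.0470 for Fasn, 0.461 for Scd1 and 0.701 for Elovl6. Leaving out a single mouse also lost the call of Scd1 without LP mouse 13 (adjusted p = 0.0286 by edgeR) and, by a small margin, without HF mouse 2 (0.0101), 4 (0.0119) or 5 (0.0112). The call of Elovl6 was lost without LP mouse 13 (adjusted p = 0.0340 by edgeR) and, with adjusted p-values of 0.0101 to 0.0125, without NP mouse 3, 4, 6 or 8, LP mouse 20, HF mouse 2, 4 or 5, or HF + LP mouse 4. The fitted log2 fold change of Fasn for LP compared to NP was 4.20 ± 0.87 with them (adjusted p = 0.383) and 0.48 ± 0.21 without (adjusted p = 1.00).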

How the data were processed

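Left ventricular RNA of 20 mice was sequenced by the authors as QuantSeq 3′ libraries (oligo-dT primed, NextSeq) and aligned with BlueBee software. The authors deposited raw counts per Ensembl gene and mouse, and the submitters' processing notes name GRCm38 and DESeq2 1.22.2. The annotation, the counting program and its strand setting are not given in the sources used here. The table lists 15956 genes, each with 60 or more counts in all, of which 15917 received a symbol. Totals per library were 12559607 to 23331907, and counting error is given beside the spread between mice.

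Groups came from the labels. Genes were filtered with filterByExpr by diet, leaving 13991, scaled by TMM and tested with edgeR 4.0.16 (R 4.3.3) on all 20 libraries, with Benjamini-Hochberg adjustment. The study's own limits defined a call, namely a mean normalized count above 50 with an adjusted p below 0.01. Log2 levels are log2 CPM with a prior count of 2. Sqle, too scarce for the filter, was tested by exact permutation. Permutation p-values of pairs used 100000 draws. The scripts were tested on simulated data. Alternatives were DESeq2 1.42.0, its size factors, other filters and thresholds, fits of 2 groups, a block for animal number, a factor for the first number of the library name, and leaving out each mouse.

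Named were all 8 members, from each other list the called genes and up to 4 with the smallest p over the diets, and the 6 genes most like the members' mean over 20 mice and after removing diet means. One gene of the list of other pathway enzymes is not reported here and was taken out of its counts. Members and lists were chosen with earlier results of these data known. Promoter windows are those of RefSeq on GRCm38.p6.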

Additional observations from a re-analysis of the deposited data

Results flagged for a closer look

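The highest and the lowest mouse were examined in 124 sets of 5 mice (31 genes in 4 diets) against Dixon's 95% limit, which chance alone passes at one end or the other in about 1 in 20 sets. In 9 sets the gap exceeded the limit, each time for the highest mouse. Among the members this held for Hmgcs1 in HF + LP mouse 4, at 600.3 normalized counts compared to 418 to 448 in the other HF + LP mice. In LP mouse 13, Fasn was 15709.9 (others 221 to 2951), Scd1 was 12305 (others 156 to 2982), Elovl6 was 997 (others 12.3 to 265) and Acaca was 1635 (others 113 to 370.2). In HF + LP mouse 3, Scd1 was 215 (others 87.6 to 112) and Elovl6 was 37.1 (others 7.48 to 12.3), and Gramd1a in HF + LP mouse 2 was 210.5 (others 128 to 151). Mvk in LP mouse 15 was 118 (others 78.0 to 88.7). LP mouse 13 and HF + LP mouse 3 had the highest adipocyte marker sums of their diets, 4990 and 185 normalized counts, and the part of adipose RNA in these values was not tested.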

How the results depend on the processing

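No member was called by edgeR or DESeq2 under any alternative, in any comparison. Without LP mice 13 and 20, Lss in LP compared to NP was -0.60, and in HF + LP compared to LP Insig1 was 0.22 and Lss 0.14, each a change of sign. Leaving out each mouse in turn gave ranges that crossed 0. They were -0.12 to 0.23 for Fdps and -0.024 to 0.073 for Srebf2 in HF compared to NP. In LP compared to NP they were -0.031 to 0.15 for Hmgcs1, -0.080 to 0.23 for Fdps and -0.21 to 0.47 for Lss. In HF + LP compared to HF they were -0.018 to 0.13 for Hmgcs1, -0.12 to 0.078 for Fdps, -0.28 to 0.099 for Insig1 and -0.014 to 0.34 for Lss. In HF + LP compared to LP they were -0.13 to 0.0015 for Fdps and -0.45 to 0.11 for Insig1. Srebf2 in that comparison ranged from -0.76 to -0.44. Over all the edgeR and DESeq2 fits, its adjusted p in that comparison lay between 0.0464 and 0.995, above the 0.01 that a call needs. The cause of these changes was not tested.

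Animal numbers are shared between diets but belong to different mice, and the 16 same-numbered pairs had correlations of their deviations from -0.553 to 0.476, so they were not taken as pairs. With the number as a replicate block, Srebf2 in HF + LP compared to LP was -0.47 (adjusted p = 0.995), Lss in LP compared to NP -0.30, and in HF + LP compared to LP Hmgcs1 was -0.047 and Fdps 0.056. Gramd1b then had adjusted p-values of 0.0426 for HF compared to NP, 0.0511 for high fat averaged and 0.0820 for any difference, where it had 0.0103 with RLE size factors. For any difference, Fasn, Scd1 and Elovl6 had 0.250, 0.366 and 0.224 with the block and 0.0774, 0.129 and 0.104 with the first number of the library name as a factor. All of these miss the threshold.

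All-gene calls of 37, 14, 140 and 67 (HF compared to NP, HF + LP compared to LP, high fat averaged, any difference) became 157, 45, 502 and 252 at an adjusted p under 0.05, 163, 84, 398 and 327 by DESeq2, and 2, 0, 13 and 2 with the block. Without LP mice 13 and 20 they were 76, 4, 149 and 65. With the first number of the library name as a factor they were 31, 5, 94 and 38, and fits of the 2 groups compared gave 61 and 0 for the first pair. Leaving out each mouse gave 20 to 69, 1 to 16, 79 to 198 and 33 to 101. Depth limits Sqle most, with 158 reads in all.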
